A study of Saccharomyces cerevisiae with 30 samples.

Results

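The genes described here make amino acids in budding yeast, with the pathways to arginine and methionine left out. They are *GCN4*, the regulator of amino acid synthesis, and 37 enzyme and subunit genes, chosen by name from general knowledge of these pathways: 4 for histidine, 6 for lysine, 9 for the branched-chain amino acids, 8 for the aromatic amino acids, 5 for threonine, 3 for serine and 2 for asparagine. All 38 have a probe set that carries their name alone, among 5656 genes with such a probe set, and all 38 passed the filter on dim signals. They were bright on these arrays: the median of their mean signals was 2700, the 94.4th percentile of all genes, and they ranged from 250 for *SER33* to 6050 for *LEU1*.

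Gcn4 is a transcription factor that binds upstream of most amino acid synthesis genes and raises their transcription when an amino acid runs short. Its own level is set mainly at translation, because short open reading frames in the leader of the *GCN4* mRNA hold back the ribosome until the kinase Gcn2 senses uncharged tRNA, so the *GCN4* transcript is not a measure of the Gcn4 protein. Single pathways have their own switches as well, such as Leu3, which responds to an intermediate of leucine synthesis, Lys14, which responds to an intermediate of lysine synthesis, and Bas1, which acts with Pho2 on histidine and purine genes.

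Transcript levels were measured on 30 Affymetrix Yeast S98 arrays from 4 strains in 12 groups, each strain being sampled without UV and at 15 and 60 min after it. The strains were BY4742 *rad7*Δ cells, a haploid laboratory strain of mating type alpha, in which a plasmid marked with *HIS3* supplied either the wild-type *RAD7* gene (pRAD7) or a version with point mutations in the SOCS box (psocs), each with *RAD23* intact or replaced by *URA3* (pRAD7 *rad23*Δ and psocs *rad23*Δ). Rad7 is a subunit of an E3 ligase that ubiquitinates the damage-binding protein Rad4 in global genome repair, the SOCS box is the part of Rad7 which that activity needs, and Rad23 forms a complex with Rad4. The question the strains address is how these factors act on transcription after UV. The chromosomal *RAD7* was absent from all groups, and all grew at 30°C in medium without histidine to late log phase. Irradiated groups received 100 J/m2 at 254 nm, groups with *RAD23* had 3 arrays and groups without it had 2. Replicates are called biological in the labels with no word on separate cultures, and the p-values given here therefore reflect the spread between samples that may be technical replicates.

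The strain labels were checked on the altered genes and the mating type. *RAD23* had a deposited signal of 605 to 1570 on the 18 arrays with the gene and of 1.26 to 4.4 on the 12 without it, and *URA3* went the other way, at 0.762 to 9.78 and 241 to 614. *LYS2*, which BY4742 lacks, stayed at or below 8.66 and *LEU2* at or below 42.1, so these cells could not make their own lysine or leucine, while *HIS3* read 4940 to 8750 from the plasmid. *RAD7* read 242 to 1170 with the pRAD7 plasmid and 17.4 to 54.2 with psocs, so the psocs strains differ from the pRAD7 strains in the *RAD7* signal as well as in the mutations, and the effects of these cannot be told apart. The alpha genes *STE3* and *SAG1* had signals of at least 1010. Of the a genes *MFA2* read at most 293, *MFA1* at most 168, *STE2* at most 83.1 and *BAR1* at most 63.6. At 15 min 1 array of pRAD7 *rad23*Δ (replicate 2) and 1 of psocs *rad23*Δ (replicate 1) stood apart: 10 stress genes, among them *HSP12* and *CTT1*, lay on average 1.35 and 1.07 above untreated on the log2 scale there, against 3.20 to 4.33 on the other 8 arrays of that time. Values at 15 min in the *rad23*Δ strains are therefore given with and without these arrays.

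Changes are given as log2 ± SE from a limma fit to all 30 arrays, relative to the median of each array, and signals are on the linear scale after that centring. A gene is called where its adjusted p, over the 4242 genes tested, is under 0.05. The counts depend on how the arrays are scaled: the median change of all genes at 60 min in pRAD7 was -0.11 with centred arrays and 0.16 without centring, and the counts at each time, and those between strains at 60 min, are therefore given under both and under quantile normalization. The shares of all genes are from centred arrays, and do not serve as the background for counts under the other scalings.

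At 15 min after UV few of the genes had moved. In pRAD7 2 were called higher and 1 lower, against 23.2% and 14.2% of all genes tested, and in psocs 1 and 2, against 21.5% and 12.3%. In pRAD7 *rad23*Δ 4 were called higher and 1 lower (8.84% and 5.92% of all genes), and in psocs *rad23*Δ 3 and 1 (10.2% and 6.67%). The median change of the members was 0.08, 0.03, 0.23 and 0.27 in these strains, beside 0.08, 0.09, 0.13 and 0.11 for all genes tested. Groups did not overlap for 5, 4, 16 and 17 of the 38 members, against 49.9%, 45%, 53.3% and 59.9% of all genes. In the values as deposited the calls, higher and lower, were 1 and 1, 1 and 2, 0 and 1, and 2 and 1 in the same order of strains, and under quantile normalization 0 and 1, 0 and 2, 0 and 1, and 1 and 1, so the 4 higher calls of pRAD7 *rad23*Δ were lost under both. Without the 2 arrays of low stress induction 1 member was called in pRAD7 *rad23*Δ (*ILV5*) and 5 in psocs *rad23*Δ (*ILV5*, *HOM3*, *LYS1*, *HOM6* and *SER3*).

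The member that fell at 15 min in every strain was *ILV5*, which encodes the acetohydroxyacid reductoisomerase of valine, leucine and isoleucine synthesis, a protein that also helps to keep mitochondrial DNA. Its signal was 5090, 4380 and 6640 in untreated pRAD7 and 2120, 1640 and 2530 at 15 min. In psocs it was 5670, 5090 and 6460 before UV and 2050, 2380 and 2720 at 15 min. Neither pair of groups overlaps. Without *RAD23* the signals were 2990 and 4180 falling to 1550 and 1980 in the pRAD7 strain, and 4050 and 4970 falling to 2130 and 1800 in the psocs strain. The change was -1.36 ± 0.19 in pRAD7 (adjusted p = 6.43e-06), -1.27 ± 0.19 in psocs (1.59e-05), -1.01 ± 0.23 in pRAD7 *rad23*Δ (0.00391) and -1.20 ± 0.23 in psocs *rad23*Δ (0.000934). *ILV5* was called lower in all 4 strains under all 3 scalings, and without the 2 arrays of low stress induction (-1.19 and -1.32 in the *rad23*Δ strains); with single arrays left out it was called in 2 of 4 fits in pRAD7 *rad23*Δ and in every fit of the other strains.

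*HOM3*, the aspartate kinase that opens the pathway to threonine and methionine, was the member called higher at 15 min in all 4 strains. In pRAD7 its signal went from 1060, 941 and 937 to 1420, 1310 and 1920, and in psocs from 563, 973 and 1110 to 1200, 1290 and 1340. Without *RAD23* it went from 600 and 926 to 1160 and 1350, and from 585 and 776 to 1350 and 1450. Every irradiated array lay above every untreated array of its strain. The rises were 0.64 ± 0.20, 0.59 ± 0.20, 0.75 ± 0.24 and 1.05 ± 0.24 (adjusted p = 0.0134, 0.0236, 0.0378 and 0.00445, in the order pRAD7, psocs, pRAD7 *rad23*Δ and psocs *rad23*Δ). In the values as deposited the rise of *HOM3* in pRAD7 *rad23*Δ was not called, and under quantile normalization the rises kept their sign and that of psocs *rad23*Δ alone was called. Without the 2 arrays of low stress induction it was 0.64 in pRAD7 *rad23*Δ, with an adjusted p of 0.16 by limma, and 1.10 in psocs *rad23*Δ, with 0.0119. With single arrays left out *HOM3* was called in 5 of 6 fits in pRAD7, 3 of 6 in psocs (where its change went down to 0.29), 1 of 4 in pRAD7 *rad23*Δ (down to 0.44) and 2 of 4 in psocs *rad23*Δ.

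*LYS1*, the last enzyme of lysine synthesis, was called higher at 15 min in 3 strains, by 0.54 ± 0.20 in pRAD7, 0.82 ± 0.25 in pRAD7 *rad23*Δ and 0.93 ± 0.25 in psocs *rad23*Δ. In psocs the change of *LYS1* was 0.18 ± 0.20 (adjusted p = 0.518), with an opposite sign, -0.02, under quantile normalization. As deposited the rise of *LYS1* was called in psocs *rad23*Δ alone, and under quantile normalization in no strain, with the sign kept in those 3. With single arrays left out *LYS1* was called in 3 of 6 fits in pRAD7 (where its change went down to 0.29), 1 of 4 in pRAD7 *rad23*Δ and 2 of 4 in psocs *rad23*Δ.

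**Figure D1:**
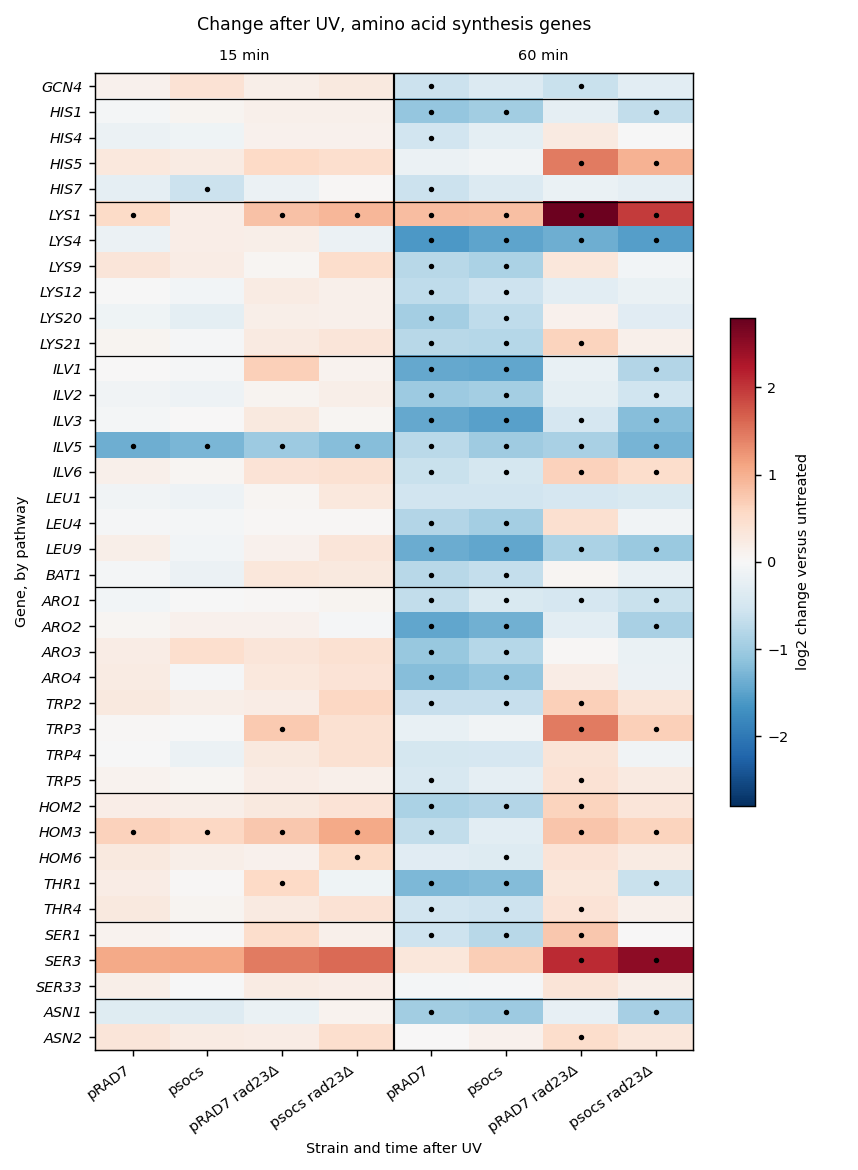
Change after UV on the log2 scale for the 38 genes (rows, with lines between pathways) in the 4 strains at 15 min and 60 min (columns); red is higher and blue lower than untreated, and a black dot marks a call. At 15 min *ILV5* is blue and *SER3*, which has no dot, is red in all 4 columns, and at 60 min the pRAD7 and psocs columns are mostly blue, with 29 and 25 calls.

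By 60 min amino acid synthesis genes had fallen across the pathways in the strains with *RAD23*. In pRAD7 29 of the 38 were called lower and 1 higher, against 36.1% and 28.7% of all genes tested (64.8% in either direction), and 10 were at least 2-fold lower. In psocs 25 were called lower and 1 higher, against 34% and 30.8% (64.8% in either direction), with 8 at least 2-fold lower. The median change of the members was -0.70 in pRAD7 and -0.66 in psocs, beside -0.11 and -0.06 for all genes tested. In pRAD7 the groups did not overlap for 32 members (70.7% of all genes) and in psocs for 26 (67.1%). In the values as deposited the calls were 21 lower and 2 higher in pRAD7 and 22 and 2 in psocs, and under quantile normalization 20 and 4 in pRAD7 and 20 and 3 in psocs. The calls that stood in the same direction under all 3 scalings numbered 17 in pRAD7 and 20 in psocs, while *GCN4*, *HIS4* and *TRP5* in pRAD7 and *ILV6* and *HOM6* in psocs changed sign under quantile normalization. Under that scaling *TRP5* was called higher in both strains and *HOM6* in pRAD7. The calls lost in pRAD7 were *GCN4*, *HIS4*, *HIS7*, *TRP2*, *TRP5*, *HOM3*, *THR4* and *SER1* as deposited, and *GCN4*, *HIS4*, *ILV5*, *ILV6*, *LEU4*, *BAT1*, *ARO1*, *TRP5* and *SER1* under quantile normalization. In psocs *ILV6*, *ARO1* and *HOM6* were lost under both, and *LYS20*, *LEU4* and *BAT1* under quantile normalization. Compared with 15 min, 28 members were lower and 1 higher in pRAD7 (33.3% and 19% of all genes, 52.3% in either direction) and 27 and 1 in psocs (32.1% and 22.2%, 54.3% in either direction). As deposited the calls were 19 lower and 2 higher in pRAD7 and 18 and 3 in psocs, and under quantile normalization 17 and 3, and 17 and 5. These comparisons share the 60 min arrays with those above.

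*GCN4* itself had signals of 6840, 6010 and 7460 in untreated pRAD7 and 4800, 4340 and 4230 at 60 min, with no overlap. In psocs it had 3650, 5990 and 7660 before UV and 4220, 4430 and 4080 at 60 min, where 1 untreated array lies below all 3 irradiated ones. The *GCN4* change at 60 min was -0.60 ± 0.18 in pRAD7 (adjusted p = 0.00549), but 0.13 under quantile normalization, and -0.38 ± 0.18 in psocs (adjusted p = 0.0689). Without *RAD23* it was -0.63 ± 0.22 in the pRAD7 strain (0.017; 6360 and 6790 before UV, 4300 and 4210 after), called under all 3 scalings but in 1 of 4 fits with a single array of its groups left out, and -0.29 ± 0.22 in the psocs strain (0.268).

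In histidine synthesis *HIS1*, the ATP phosphoribosyltransferase of the first step, fell most. Its signal was 4900, 4080 and 6110 in untreated pRAD7 and 2320, 2200 and 2480 at 60 min, and 3640, 4850 and 5440 in untreated psocs and 1860, 2650 and 2590 at 60 min. The groups do not overlap in either strain, and *HIS1* fell by 1.09 ± 0.17 in pRAD7 (adjusted p = 8.45e-06) and by 0.97 ± 0.17 in psocs (3.46e-05). *HIS7*, which makes the imidazole ring, had 1240, 908 and 916 before UV and 543, 700 and 791 at 60 min in pRAD7, a fall of 0.59 ± 0.21 (adjusted p = 0.0163) that was not called in psocs (-0.39 ± 0.21). *HIS4*, an enzyme of several steps, was called in pRAD7 alone, at -0.54 ± 0.21, and had the opposite sign under quantile normalization. *HIS5*, the histidinol-phosphate aminotransferase, stood near its untreated level in both strains: 955, 703 and 845 before UV and 748, 799 and 684 at 60 min in pRAD7, and 894, 818 and 990 before UV and 900, 842 and 773 at 60 min in psocs. Its changes were -0.16 ± 0.16 and -0.10 ± 0.16, and neither was called.

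Lysine synthesis held the largest fall and the sole rise among the members called in pRAD7 at 60 min. *LYS4*, the homoaconitase, had signals of 616, 543 and 770 in untreated pRAD7 and 212, 221 and 198 at 60 min, and in psocs 227, 544 and 667 before UV and 110, 195 and 180 after. *LYS4* fell by 1.60 ± 0.29 in pRAD7 (3.03-fold, adjusted p = 3.94e-05) and by 1.47 ± 0.29 in psocs (2.78-fold). *LYS1*, the saccharopine dehydrogenase that releases lysine, moved the other way, from 900, 509 and 820 to 1210, 1410 and 1330 in pRAD7 and from 1020, 766 and 958 to 2020, 1470 and 1440 in psocs. *LYS1* rose by 0.86 ± 0.20 (adjusted p = 0.000744) and 0.84 ± 0.20, and was called higher under all 3 scalings in both strains. Between these ends of the pathway, *LYS12*, the homoisocitrate dehydrogenase, and *LYS9*, the saccharopine dehydrogenase of the preceding step, fell by 0.71 ± 0.15 and 0.78 ± 0.16 in pRAD7 and by 0.59 ± 0.15 and 0.89 ± 0.16 in psocs.

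The 2 homocitrate synthase genes, *LYS20* and *LYS21*, which open the lysine pathway, moved alike with *RAD23* present. *LYS20* had 3960, 2850 and 5260 in untreated pRAD7 and 1850, 1940 and 2280 at 60 min, without overlap, and its change was -0.95 ± 0.18, beside -0.77 ± 0.18 for *LYS21*. In psocs the changes were -0.72 ± 0.18 for *LYS20* and -0.80 ± 0.18 for *LYS21*. A further probe set shared by *LYS20* and *LYS21* lay at -0.91 in pRAD7 and -0.78 in psocs. In pRAD7 *rad23*Δ that probe set lay at 0.02, beside 0.12 for *LYS20* and 0.61 for *LYS21*. In psocs *rad23*Δ it lay at -0.50, beside -0.31 and 0.14, so it did not show the rise of *LYS21*. The coding sequences are close, and signal passing between their probes was not tested.

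In the branched-chain pathway 8 of 9 members were called lower in pRAD7 and 8 of 9 in psocs. *ILV3*, the dihydroxyacid dehydratase, had signals of 7440, 6060 and 8380 before UV and 3060, 2460 and 2620 at 60 min in pRAD7, and 7590, 6050 and 9390 before and 2950, 2420 and 2520 after in psocs. *ILV3* fell by 1.42 ± 0.16 (adjusted p = 9.67e-08) and 1.53 ± 0.16 (2.88e-08), with no overlap in either strain. *ILV1*, the threonine deaminase that commits threonine to isoleucine, had 2850, 2540 and 2770 before UV and 1220, 813 and 1020 at 60 min in pRAD7, and 1370, 2370 and 3060 before and 627, 855 and 916 after in psocs. Its falls were 1.44 ± 0.28 in pRAD7 and 1.45 ± 0.28 in psocs. *ILV2* and *ILV6*, the catalytic and regulatory subunits of acetolactate synthase, changed by -1.02 ± 0.19 and -0.62 ± 0.15 in pRAD7 and by -0.95 ± 0.19 and -0.49 ± 0.15 in psocs, although under quantile normalization *ILV6* lay at -0.04 in pRAD7 and 0.05 in psocs and was called in neither. *ILV5*, already low at 15 min, stood at -0.75 ± 0.19 in pRAD7 and -0.99 ± 0.19 in psocs.

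Leucine has its own branch from this pathway. *LEU4* and *LEU9* both encode α-isopropylmalate synthase, and *LEU9* fell further in both strains: by 1.38 ± 0.14 against 0.82 ± 0.20 for *LEU4* in pRAD7, and by 1.45 ± 0.14 against 0.95 ± 0.20 in psocs, the difference between the paralogs being untested. *LEU1*, the isomerase of the next step, was not called, at -0.54 ± 0.26 in both strains (adjusted p = 0.0695 and 0.0697), and had the opposite sign, 0.22, in pRAD7 under quantile normalization. *BAT1*, the mitochondrial branched-chain aminotransferase, fell by 0.78 ± 0.20 in pRAD7 and 0.67 ± 0.20 in psocs, but lay at -0.09 and -0.04 under quantile normalization and was called in neither.

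In aromatic synthesis 6 of 8 members were called lower in pRAD7 and 5 of 8 in psocs, among them the 4 genes of the trunk of the pathway, from its entry to chorismate. *ARO2*, the chorismate synthase, had signals of 6780, 5620 and 7130 in untreated pRAD7 and 2460, 2310 and 2350 at 60 min, and in psocs 6110, 5870 and 7410 before UV and 3030, 2230 and 2430 after. *ARO2* fell by 1.45 ± 0.14 in pRAD7 (2.73-fold, adjusted p = 7.56e-09) and 1.34 ± 0.14 in psocs (1.76e-08). *ARO3* and *ARO4*, the DAHP synthases inhibited by phenylalanine and by tyrosine, fell by 1.07 ± 0.22 and 1.19 ± 0.14 in pRAD7 and by 0.80 ± 0.22 and 1.07 ± 0.14 in psocs. The *ARO4* arrays read 3890, 2710 and 3750 before UV and 1210, 1710 and 1620 at 60 min in pRAD7, and 3920, 3100 and 4300 before and 1790, 1790 and 1740 after in psocs, with no overlap. *ARO1*, the enzyme of the middle steps, fell by 0.69 ± 0.15 and 0.42 ± 0.15. In the tryptophan branch *TRP2*, a subunit of anthranilate synthase, fell by 0.65 ± 0.19 in both strains. *TRP5*, the tryptophan synthase, fell by 0.45 ± 0.12 in pRAD7. Under quantile normalization *TRP5* was instead called higher, in pRAD7 (0.21, adjusted p = 0.0253 by limma) and in psocs (0.35, 0.000509). With centred arrays *TRP4* was not called (-0.49 ± 0.22 and -0.47 ± 0.22). *TRP3*, the other anthranilate synthase subunit and also the indole-glycerol-phosphate synthase, was not called either, with 558, 507 and 670 before UV and 518, 488 and 483 at 60 min in pRAD7, and 576, 578 and 588 before and 606, 566 and 475 after in psocs.

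The threonine genes *HOM2*, the aspartate semialdehyde dehydrogenase, and *THR1*, the homoserine kinase, carried the largest falls of their pathway. *THR1* had signals of 4840, 4050 and 4930 in untreated pRAD7 and 1850, 2060 and 1860 at 60 min, and in psocs 4490, 4190 and 5450 before UV and 2170, 1880 and 1980 after. *HOM2* had 4040, 3160 and 4490 before and 2150, 2060 and 2010 after in pRAD7, and 3730, 3300 and 4880 before and 2430, 2110 and 2170 after in psocs. For both genes every 60 min array lay below every untreated array of its strain. *THR1* fell by 1.26 ± 0.15 in pRAD7 (adjusted p = 1.93e-07) and 1.22 ± 0.15 in psocs, and *HOM2* by 0.90 ± 0.15 (2.35e-05) and 0.81 ± 0.15. *THR4*, the threonine synthase, fell by 0.53 ± 0.13 and 0.57 ± 0.13. *HOM3*, higher at 15 min, was below its untreated level at 60 min in pRAD7, with 688, 536 and 606 and a fall of 0.69 ± 0.20, and in psocs read 711, 685 and 688, a change of -0.29 ± 0.20 that was not called. *HOM6*, the homoserine dehydrogenase, was called in psocs (-0.36 ± 0.14) and not in pRAD7 (-0.31 ± 0.14), and changed sign under quantile normalization. There it was called higher in pRAD7 (0.36, adjusted p = 0.00387 by limma) and lay at 0.23 in psocs, not called.

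Serine and asparagine synthesis each split between their genes. *SER1*, the phosphoserine aminotransferase, had signals of 2820, 2240 and 2440 in untreated pRAD7 and 1600, 1670 and 1760 at 60 min, and in psocs 2320, 2170 and 3010 before UV and 877, 1850 and 1890 after, with falls of 0.57 ± 0.22 and 0.77 ± 0.22. *SER33*, one of the pair of 3-phosphoglycerate dehydrogenases, had 285, 229 and 220 before and 245, 206 and 259 after in pRAD7, and 243, 232 and 241 before and 244, 206 and 253 after in psocs, and its changes were -0.05 ± 0.15 and -0.03 ± 0.15. Its isoenzyme gene *SER3*, which is kept off by transcription of the upstream noncoding RNA *SRG1* when serine is present, varied widely before UV, at 316, 785 and 192 in pRAD7 and 201, 511 and 259 in psocs, and at 60 min read 496, 445 and 424, and 503, 412 and 546. The *SER3* changes were 0.33 ± 0.56 and 0.70 ± 0.56, not called. Of the asparagine synthetases *ASN1* fell, from 4790, 3910 and 4520 to 2260, 2070 and 2410 in pRAD7 and from 4480, 4020 and 5770 to 2210, 2290 and 2460 in psocs (by 0.97 ± 0.22 and 1.02 ± 0.22). *ASN2* had 3770, 2920 and 3870 before and 3160, 3780 and 3590 after in pRAD7, and 3890, 3190 and 4380 before and 4630, 3920 and 3920 after in psocs, overlapping in both, with changes of 0.00 ± 0.15 and 0.13 ± 0.15. *ASN2* was called higher in both strains under the other scalings, at 0.27 and 0.33 as deposited and at 0.60 and 0.69 under quantile normalization.

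**Figure D2:**
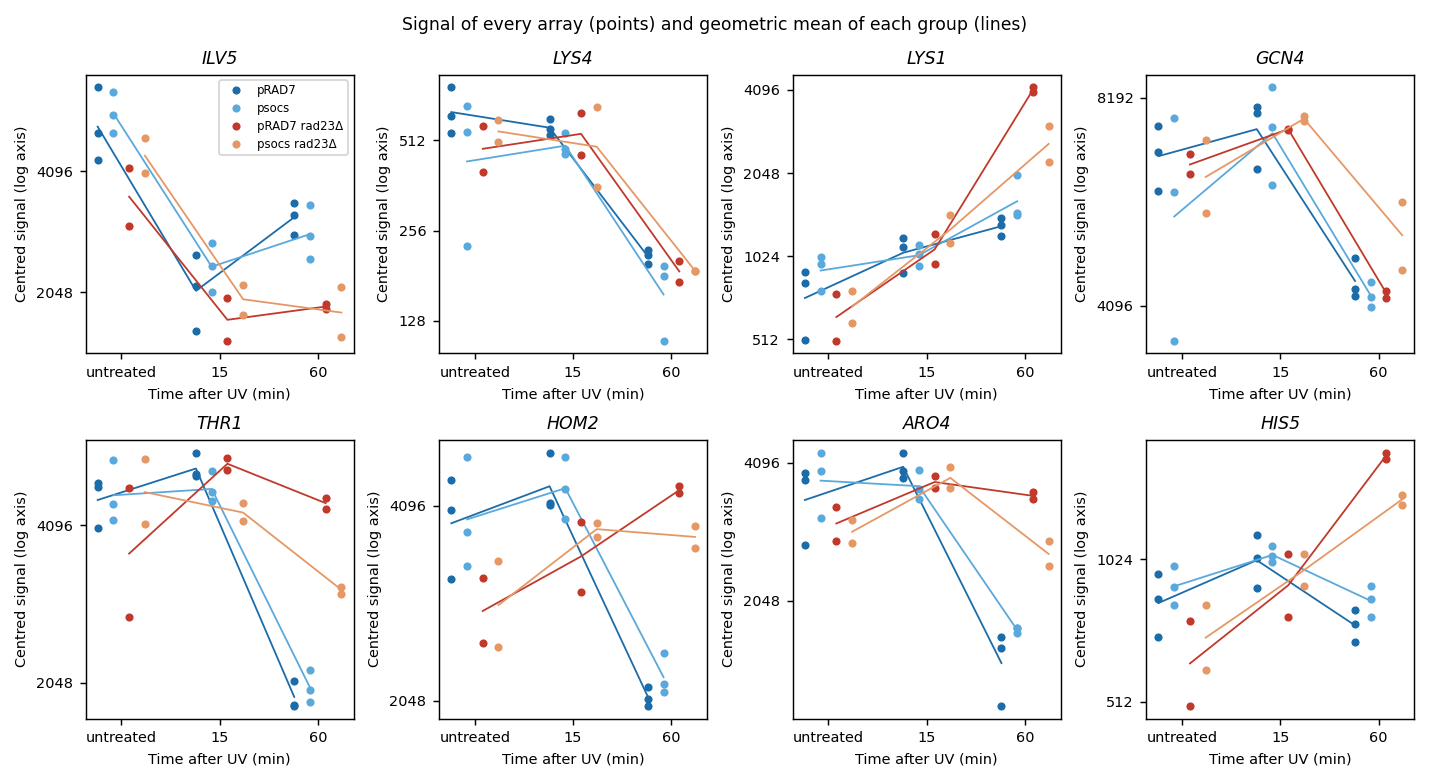
Signal of 8 members on every array, on a log2-spaced axis after centring, against time after UV, by strain (colours); lines join the geometric means of the groups. *ILV5* falls by 15 min and *LYS4* between 15 and 60 min in all 4 strains, while *THR1*, *HOM2*, *ARO4* and *HIS5* separate the strains with *RAD23* (blue) from those without it (red and orange) at 60 min.

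Without *RAD23* the 60 min picture differed. In pRAD7 *rad23*Δ 13 members were called higher and 6 lower, against 32.6% and 28.2% of all genes tested (60.8% in either direction), with a median change of 0.28 beside 0.08 for all genes, and in psocs *rad23*Δ 6 were called higher and 11 lower, against 31.2% and 28.8%, with a median of -0.13 beside 0.04. In the values as deposited these counts were 8 higher and 8 lower, and 5 and 11, and under quantile normalization 10 and 8, and 6 and 12. Leaving out any 1 array of pRAD7 *rad23*Δ lowered its 19 calls to between 11 and 14, the fewest without 60 min replicate 2. The calls that stood in the same direction under all 3 scalings numbered 14 in pRAD7 *rad23*Δ and 16 in psocs *rad23*Δ. Compared with 15 min, 8 members were lower and 3 higher in pRAD7 *rad23*Δ (24% and 20.5% of all genes) and 13 and 2 in psocs *rad23*Δ (24.3% and 19.5%, 43.8% in either direction); as deposited the calls were 7 lower and 3 higher, and 13 and 2, and under quantile normalization 7 and 7, and 12 and 2. Without the 2 arrays of low stress induction 9 and 7 members were called.

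Across the strains the members at 60 min fell into a few patterns, described here from the calls of each strain. Called lower in all 4 strains were 5 members, *LYS4*, *ILV3*, *ILV5*, *LEU9* and *ARO1* (18.9% of all genes had this pattern); under all 3 scalings this held for *LYS4*, *ILV3* and *LEU9*, and not for *ILV5* or *ARO1*. *LYS1* was called higher in all 4 strains, under all 3 scalings, a pattern of 18.5% of all genes. Lower in both strains with *RAD23* and in neither without it were 13 members (7.47% of all genes): *LYS9*, *LYS12*, *LYS20*, *LYS21*, *ILV6*, *LEU4*, *BAT1*, *ARO3*, *ARO4*, *TRP2*, *HOM2*, *THR4* and *SER1*. Under all 3 scalings this held for *LYS9*, *LYS21*, *ARO3*, *ARO4* and *HOM2*, and not for the others. Lower in pRAD7 and higher in pRAD7 *rad23*Δ were 8, against 2.36% of all genes. Of these *HOM2* alone kept the pattern under all 3 scalings. Higher in both *rad23*Δ strains were *HIS5*, *LYS1*, *ILV6*, *TRP3*, *HOM3* and *SER3* (26% of all genes had this pattern). *HOM3* lost this pattern under both other scalings, and the rest kept it.

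*LYS4* showed the pattern shared by all strains, at 402 and 573 before UV and 203 and 173 at 60 min in pRAD7 *rad23*Δ, and 504 and 597 before and 188 and 188 after in psocs *rad23*Δ. It fell by 1.36 ± 0.35 and 1.55 ± 0.35 there, close to its falls of 1.60 and 1.47 with *RAD23*. The difference of the *LYS4* response in pRAD7 *rad23*Δ from that in pRAD7 was 0.24, with a 95% interval from -0.70 to 1.18. *LYS1* rose in all strains and furthest without *RAD23*: from 506 and 749 to 4010 and 4190 in pRAD7 *rad23*Δ (by 2.74 ± 0.25, 6.66-fold, adjusted p = 6.5e-09) and from 588 and 767 to 3030 and 2250 in psocs *rad23*Δ (by 1.96 ± 0.25, 3.89-fold). *SER3* went from 422 and 87.6 to 882 and 765, and from 461 and 97.8 to 1130 and 1290, so its rises of 2.10 ± 0.68 and 2.51 ± 0.68 rest on untreated replicates several-fold apart.

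The difference between the responses was tested directly, as the change at 60 min without *RAD23* minus the change with it. For the pRAD7 plasmid 22 of 38 members had a higher response without *RAD23* and 0 a lower one, against 18.6% and 11.4% of all genes tested, and for the psocs plasmid 9 and 0, against 5.14% and 4.24%. The median difference was 0.93 for pRAD7 and 0.49 for psocs, beside 0.15 and 0.08 for all genes. These comparisons share no array, and the 9 members called with psocs were among the 22 called with pRAD7, that is 100% of the 9 and 40.9% of the 22. Of all genes 30% were called in either direction for pRAD7 and 9.38% for psocs. Their overlap was not counted, so whether this overlap is particular to the members is not known. The counts depend on the scaling: in the values as deposited they were 12 higher and 0 lower, and 4 and 0, and under quantile normalization 12 and 2, and 2 and 1. Called higher under all 3 scalings were *HIS5*, *LYS1*, *LYS21*, *ILV6*, *ARO2*, *ARO4*, *TRP2*, *TRP3*, *HOM2*, *HOM3* and *THR1* for pRAD7, and *HIS5* and *HOM2* for psocs. Without replicate 1 of untreated psocs *rad23*Δ the 9 calls for psocs fell to 1. Set against pRAD7, the control, the psocs *rad23*Δ response was called higher for 11 members and lower for 0 (7.5% and 3.77% of all genes), a comparison that shares arrays with both of those above; 5 and 1 were called as deposited and 3 and 1 under quantile normalization. Without replicate 1 of untreated psocs *rad23*Δ 4 were called.

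The mean rise of the stress genes was smaller without *RAD23*. On the 60 min arrays the 10 stress genes were on average 4.54 to 5.20 above untreated with *RAD23* and 3.63 to 4.27 above it without. Of the 10, 2 had a called lower response in pRAD7 *rad23*Δ than in pRAD7 and 0 a higher one. Of all genes tested 11.4% were called lower and 18.6% higher there. The part of the stress genes in the difference of the amino acid genes was not tested. In bulk RNA a smaller share of responding cells and a smaller change per cell cannot be told apart.

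*HOM2* and *HIS5* were the members called in each of the 3 differences of responses under all 3 scalings. Others, such as *ILV6*, *ARO4* and *LYS1*, were called in each with centred arrays. *HOM2*, 2510 and 3170 in untreated pRAD7 *rad23*Δ, read 4280 and 4390 at 60 min, and in psocs *rad23*Δ it went from 2480 and 3360 to 3810 and 3520. Where the *HOM2* arrays with *RAD23* read 2430 or below at 60 min, no 60 min array without *RAD23* was below 3520. The *HOM2* difference was 1.51 ± 0.24 for pRAD7 (adjusted p = 7.32e-05), 1.15 ± 0.24 for psocs (0.00622) and 1.24 ± 0.24 for psocs *rad23*Δ against pRAD7 (0.00297), and it held under every scaling and with each single array left out. *HIS5* rose from 502 and 759 to 1720 and 1670 in pRAD7 *rad23*Δ and from 598 and 818 to 1330 and 1400 in psocs *rad23*Δ, by 1.46 ± 0.19 and 0.97 ± 0.19, with arrays of the strains with *RAD23* at 900 or below at the same time. The *HIS5* difference was 1.62 ± 0.25 for pRAD7 (adjusted p = 5.02e-05), 1.07 ± 0.25 for psocs (0.0102) and 1.13 ± 0.25 for psocs *rad23*Δ against pRAD7 (0.00661). For pRAD7 the *HIS5* call held in all 18 other fits. Each of the other calls held in 17 of 18 and was lost without replicate 1 of untreated psocs *rad23*Δ.

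*THR1* had the smallest adjusted p of the members in the pRAD7 pair. It read 2730 and 4820 before UV and 4400 and 4610 at 60 min in pRAD7 *rad23*Δ, and 4110 and 5480 before and 3120 and 3030 after in psocs *rad23*Δ. Its untreated replicates in pRAD7 *rad23*Δ thus enclose the irradiated ones, and in psocs *rad23*Δ *THR1* was called lower, by 0.63 ± 0.19. The *THR1* difference was 1.57 ± 0.24 for pRAD7 (adjusted p = 4.3e-05) and 0.60 ± 0.24 for psocs (0.122). *ARO4* read 3280 and 2770 before UV and 3410 and 3540 after in pRAD7 *rad23*Δ, and 2740 and 3070 before and 2770 and 2440 after in psocs *rad23*Δ, and its differences were 1.39 ± 0.23 (8.56e-05), 0.91 ± 0.23 (0.0139) and 1.03 ± 0.23 (0.00631, against pRAD7). The latter 2 *ARO4* calls held in 14 and 17 of 18 other fits, and both were lost under quantile normalization. *ARO2* read 5280 and 6270 before and 4610 and 4720 after in pRAD7 *rad23*Δ, a difference of 1.15 ± 0.22 from pRAD7, and 5550 and 7070 before and 3720 and 3030 after in psocs *rad23*Δ, where *ARO2* fell by 0.90 ± 0.17.

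Several members rose without *RAD23*, in the pRAD7 strain or in both, where they had fallen or stood still with it. *LYS1*, which rose in all strains, rose further without *RAD23*. *TRP3* went from 279 and 429 to 944 and 965 in pRAD7 *rad23*Δ, a rise of 1.46 ± 0.22, and from 461 and 434 to 672 and 751 in psocs *rad23*Δ, a rise of 0.67 ± 0.22. Its difference was 1.68 ± 0.29 for pRAD7 (adjusted p = 0.000145) and 0.76 ± 0.29 for psocs (0.101, not called). Against pRAD7 the *TRP3* difference of psocs *rad23*Δ was 0.88 ± 0.29 (0.049), a call that held in 5 of 18 other fits and was lost under both other scalings. *ILV6* went from 3820 and 4150 to 7030 and 5580, and from 3510 and 4410 to 5760 and 5300, and all 4 irradiated arrays lay above the 3420 to 4300 of the strains with *RAD23*. The *ILV6* differences were 1.28 ± 0.23, 0.98 ± 0.23 (0.0115) and 1.11 ± 0.23 (0.00448). The latter 2 calls held in 14 and 17 of 18 other fits, and both were lost under quantile normalization. *HOM3* at 60 min read 1320 and 1250 in pRAD7 *rad23*Δ and 1060 and 1000 in psocs *rad23*Δ, against 536 to 711 with *RAD23*, and its differences were 1.47 ± 0.31 for pRAD7, 0.90 ± 0.31 for psocs (0.0677, not called) and 1.30 ± 0.31 for psocs *rad23*Δ against pRAD7 (0.00985). *LYS1* differed by 1.87 ± 0.32 and 1.12 ± 0.32 (adjusted p = 0.000154 and 0.0315). The psocs call of *LYS1* held in 9 of 18 other fits and was lost under both other scalings. *SER1* went from 1700 and 1990 to 3590 and 2670 in pRAD7 *rad23*Δ, a rise of 0.75 ± 0.27, and from 2280 and 2450 to 1920 and 2910 in psocs *rad23*Δ, where its change was 0.00 ± 0.27. The call of the *SER1* rise held in 8 of 12 other fits. It was lost under both other scalings, at 0.60 as deposited and 0.53 under quantile normalization.

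With centred arrays *LYS9*, *LYS21*, *TRP2* and *THR4* were also called in both pairs. Their differences were 1.09, 1.39, 1.32 and 0.91 for pRAD7, and 0.83, 0.94, 1.02 and 0.72 for psocs. Their psocs calls were lost under both other scalings. Members not yet named were called in the pRAD7 pair alone or in neither pair. *GCN4* differed by -0.03 ± 0.28 for pRAD7 and 0.09 ± 0.28 for psocs, with 95% intervals from -0.61 to 0.56 and -0.50 to 0.68. These depend on the scaling: for pRAD7 the *GCN4* difference was -0.45 as deposited, not called, and -0.83 under quantile normalization, where it was called lower (adjusted p = 0.00931), and for psocs it was -0.20 and -0.49, called in neither. *ILV5* differed by -0.16 ± 0.29 and -0.30 ± 0.29, and for pRAD7 by -0.58 as deposited, not called, and by -0.88 under quantile normalization, where it was the other member called lower (adjusted p = 0.0308). *ILV3*, which read 4700 and 6170 before UV and 4030 and 3730 after in pRAD7 *rad23*Δ and 6020 and 6900 before and 2850 and 2780 after in psocs *rad23*Δ, was called for pRAD7 (0.95 ± 0.26) and not for psocs (0.33 ± 0.26). *ILV1* likewise was called for pRAD7 (1.22 ± 0.44), with 1080 and 2120 before UV and 1640 and 1030 after, and not for psocs (0.63 ± 0.44), with 2290 and 2410 before and 1060 and 1680 after. *HIS1* read 3470 and 4100 before and 3230 and 3160 after in pRAD7 *rad23*Δ, and 3530 and 4400 before and 2390 and 2480 after in psocs *rad23*Δ, for differences of 0.85 ± 0.27 and 0.28 ± 0.27, of which the former was called. *SER3* had differences of 1.77 ± 0.88 and 1.81 ± 0.88, neither called. Among the paired enzymes *LYS20* differed by 1.08 ± 0.29 and *LYS21* by 1.39 ± 0.28 for pRAD7, *LEU4* by 1.27 ± 0.32 and *LEU9* by 0.49 ± 0.23, *ARO3* by 1.11 ± 0.34 and *ARO4* by 1.39 ± 0.23, *SER33* by 0.41 ± 0.24, and *ASN1* by 0.74 ± 0.34 and *ASN2* by 0.48 ± 0.23; *LEU9*, *SER33*, *ASN1* and *ASN2* were not called.

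**Figure D3:**
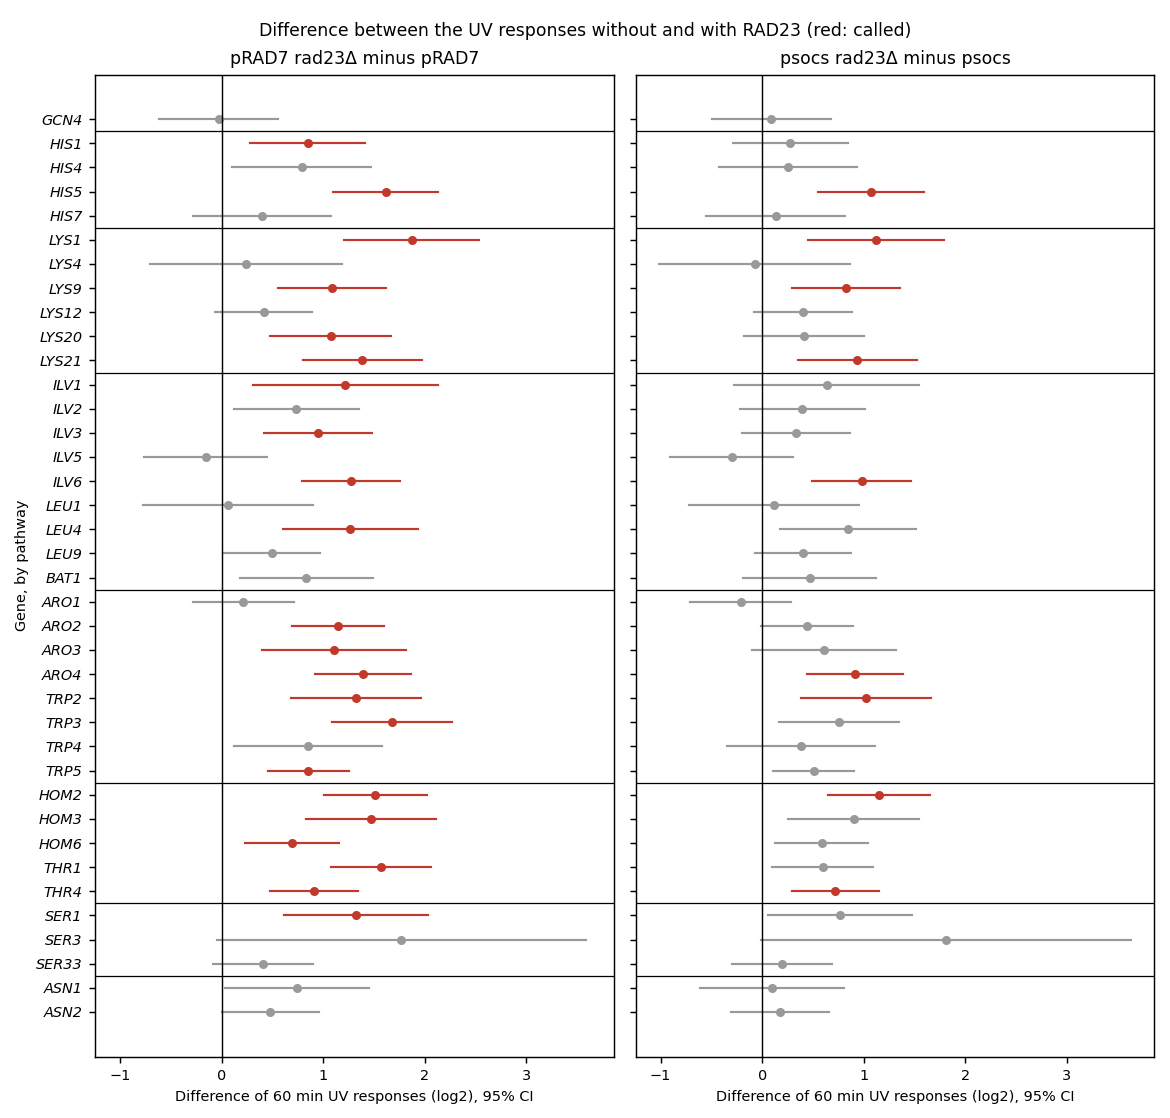
Difference of the 60 min UV responses on the log2 scale with its 95% interval for each of the 38 genes, without *RAD23* minus with it, for the pRAD7 plasmid (left) and the psocs plasmid (right); red marks a call. On the left 22 members and on the right 9 lie above 0 as calls, and the intervals of *GCN4*, *ILV5* and *LYS4* include 0 in both; values are from centred arrays, and under quantile normalization *GCN4* and *ILV5* were called lower for pRAD7.

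Each pathway is drawn as a mean over its genes on every array in the plot of pathway means. At 60 min the branched-chain mean lay between -1.09 and -0.89 on the pRAD7 arrays, between -1.03 and -0.97 on psocs, at -0.20 and -0.27 on pRAD7 *rad23*Δ and at -0.58 and -0.56 on psocs *rad23*Δ. The threonine mean lay between -0.75 and -0.72, between -0.71 and -0.55, at 0.49 and 0.51 and at 0.19 and 0.09 in the same order. The aromatic mean lay between -0.84 and -0.73, between -0.68 and -0.61, at 0.26 and 0.33 and at -0.02 and -0.15. In each of these 3 pathways every 60 min array of a *rad23*Δ strain lay above every 60 min array of a strain with *RAD23*, relative to its own untreated level, and the same held for histidine, lysine and serine. It did not hold for asparagine, where 1 array of psocs *rad23*Δ lay at -0.46 and the arrays with *RAD23* between -0.55 and -0.40. These means are given for centred arrays only, and single genes weigh on the smaller pathways. For psocs *HIS5* differed by 1.07, and *HIS1*, *HIS4* and *HIS7* by 0.28, 0.26 and 0.13. Under quantile normalization *HIS1* and *HIS4* lay at -0.19 and -0.32 there. In serine *SER3* differed by 1.81 for psocs, not called, beside 0.77 for *SER1* and 0.20 for *SER33*. Under quantile normalization the psocs *rad23*Δ minus psocs differences were negative for *ILV2*, *ILV3*, *ILV5* (-0.84), *LEU1* and *BAT1*. They were positive for *ILV1*, *ILV6* (0.44), *LEU4* and *LEU9*, so the branched-chain separation of the psocs strains may not hold there.

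**Figure D4:**
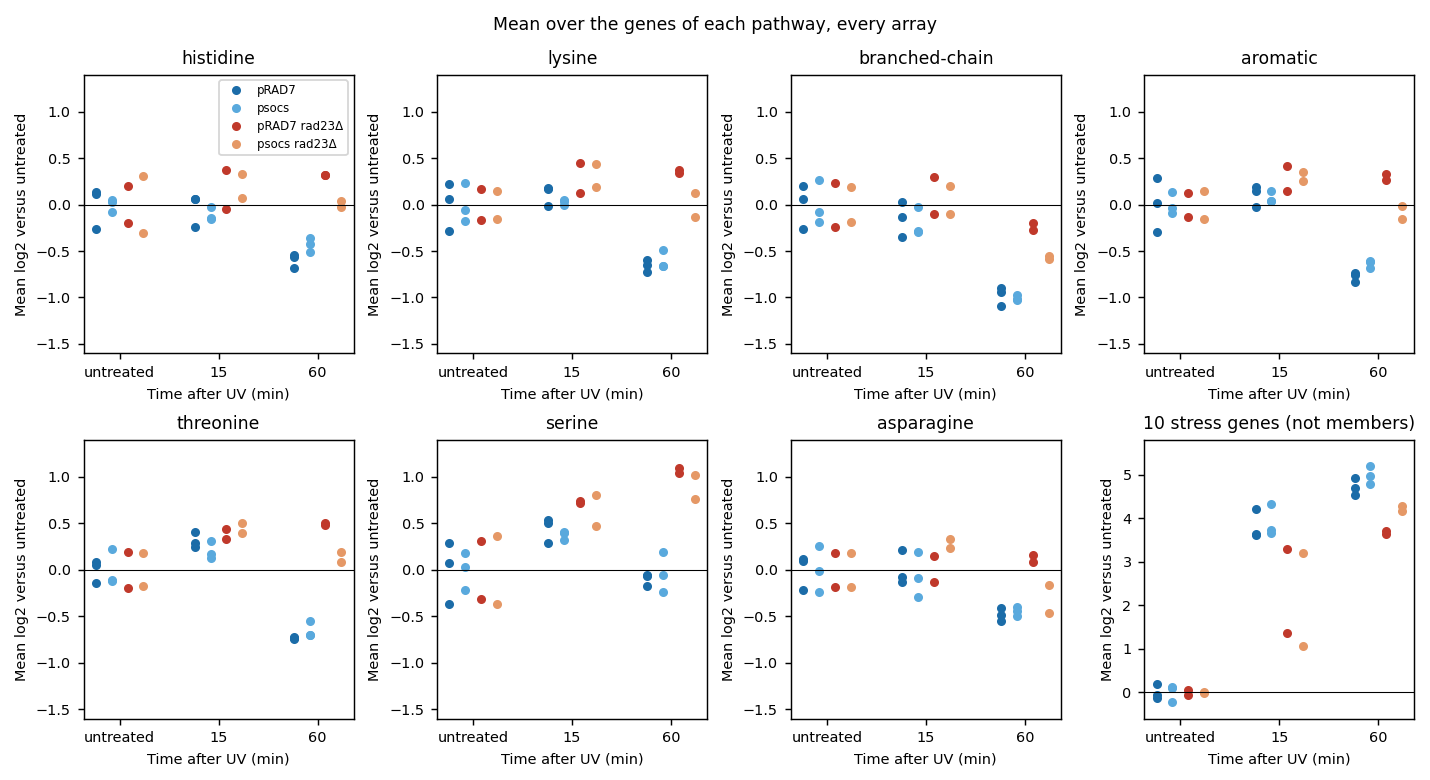
Mean over the genes of a pathway of the log2 value minus the untreated mean of the strain, for every array (points), by time after UV and strain (colours); the last panel gives the 10 stress genes on its own scale. At 60 min the branched-chain points of pRAD7 lie between -1.09 and -0.89, and the threonine points of the *rad23*Δ strains lie between 0.09 and 0.51. Values are from centred arrays.

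Before UV no member was called in the 5 comparisons of untreated strains that were made, with centred arrays. The calls were 0 for psocs against pRAD7 (0% higher and 0.0236% lower of all genes tested), 0 for pRAD7 *rad23*Δ against pRAD7 (0.636% and 0.566%, 1.2% in either direction), 0 for psocs *rad23*Δ against psocs (0.495% and 0.542%), 0 for psocs *rad23*Δ against pRAD7 (0.212% and 0.306%) and 0 for psocs *rad23*Δ against pRAD7 *rad23*Δ (0.0471% and 0.0471%) by limma. At an unadjusted p under 0.05 the counts were 0, 12, 11, 7 and 1 of 38. The median of the members was 0.04 for psocs against pRAD7, -0.39 for pRAD7 *rad23*Δ against pRAD7 and -0.34 for psocs *rad23*Δ against psocs, with 33 and 31 of 38 below 0 in these last. Without replicate 2 of untreated pRAD7 *rad23*Δ 5 members were called against pRAD7. The untreated level enters every difference of responses, so the strains were also set side by side at 60 min, a comparison added after the values were seen: 21 members were called higher and 1 lower in pRAD7 *rad23*Δ than in pRAD7 (33.3% and 14.5% of all genes), and 9 higher and 2 lower in psocs *rad23*Δ than in psocs (17.7% and 8.98%). As deposited the calls were 14 higher and 4 lower in the pRAD7 pair and 1 and 4 in the psocs pair, and under quantile normalization 13 and 4, and 2 and 4, so in the psocs pair the balance of directions turned with the scaling and *ILV5* and *ARO1*, both lower, were the members called under all 3. With centred arrays *LYS1* lay 1.64 higher in the pRAD7 pair and 0.69 higher in the psocs pair, *HIS5* 1.19 and 0.71, *HOM2* 1.06 and 0.71, and *ILV5* was the member called lower in both, by -0.74 and -0.65. At 15 min 0 members were called in either pair, against 0.0943% and 0.141% of all genes in either direction, so few genes of any kind were called there. At an unadjusted p under 0.05 the members numbered 2 and 2.

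With *RAD23* present no member was called between the psocs and the pRAD7 strain, which differ in the *RAD7* signal as well as in the SOCS box. Between the psocs and pRAD7 responses 0 members were called at 15 min and 0 at 60 min by limma, 0% of all genes were called in either direction, and 0 members had an unadjusted p under 0.05 at either time. The median difference at 60 min was 0.08, beside 0.06 for all genes. Intervals allow modest differences: for *THR1* the 95% interval of the 60 min difference was -0.41 to 0.48, and for *HOM2* -0.37 to 0.54. Between psocs *rad23*Δ and pRAD7 *rad23*Δ, also compared after the values were seen, 0 members differed in the 60 min response (0.165% of all genes higher and 0.0707% lower), with 5 at an unadjusted p under 0.05, and the median of the members was -0.28, with 34 of 38 below 0.

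The rest of the pathways and their regulators, listed by name and not by how they moved, were mixed. Of 18 other genes of these pathways tested, 2 were called higher and 10 lower at 60 min in pRAD7, with a median of -0.59. Of all genes tested 28.7% were called higher and 36.1% lower in that comparison. The plasmid-borne *HIS3* fell by 0.56 in pRAD7, *SER2*, the phosphoserine phosphatase, fell by 0.72 and was lower in all 4 strains, and *GLY1*, the threonine aldolase, fell by 1.25 in pRAD7 and by 1.60 in psocs *rad23*Δ. *ARO9*, an aromatic aminotransferase that acts mainly in breakdown, rose by 1.91. Of 14 regulators tested 1 was called higher and 9 lower in pRAD7, among them *BAS1* at -2.74 and *LEU3* at -0.79, both also called lower in the other 3 strains. *PCL5*, the cyclin that directs phosphorylation and breakdown of Gcn4 and is itself a Gcn4 target, stood at 0.06 in pRAD7 and 0.18 in psocs and rose by 1.69 and 1.74 without *RAD23*, a difference of 1.63 for pRAD7 that was called. Of 11 breakdown genes 6 were called higher and 1 lower in pRAD7, with a median of 0.58.

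The neighbouring pathways left out of the set give the scale of these differences. In pRAD7 at 60 min 0 of 8 arginine genes were called higher and 5 lower, 2 of 15 sulfur and methionine genes higher and 9 lower, and 1 of 14 purine genes higher and 9 lower. In pRAD7 *rad23*Δ the counts were 7 and 0 for arginine, 9 and 2 for sulfur and methionine and 1 and 7 for purines, and the medians were 0.94, 1.21 and -0.49, beside 0.28 for the 38 members. Of all genes tested 28.7% were called higher and 36.1% lower in pRAD7, and 32.6% and 28.2% in pRAD7 *rad23*Δ. No test between these lists was made.

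**Figure D5:**
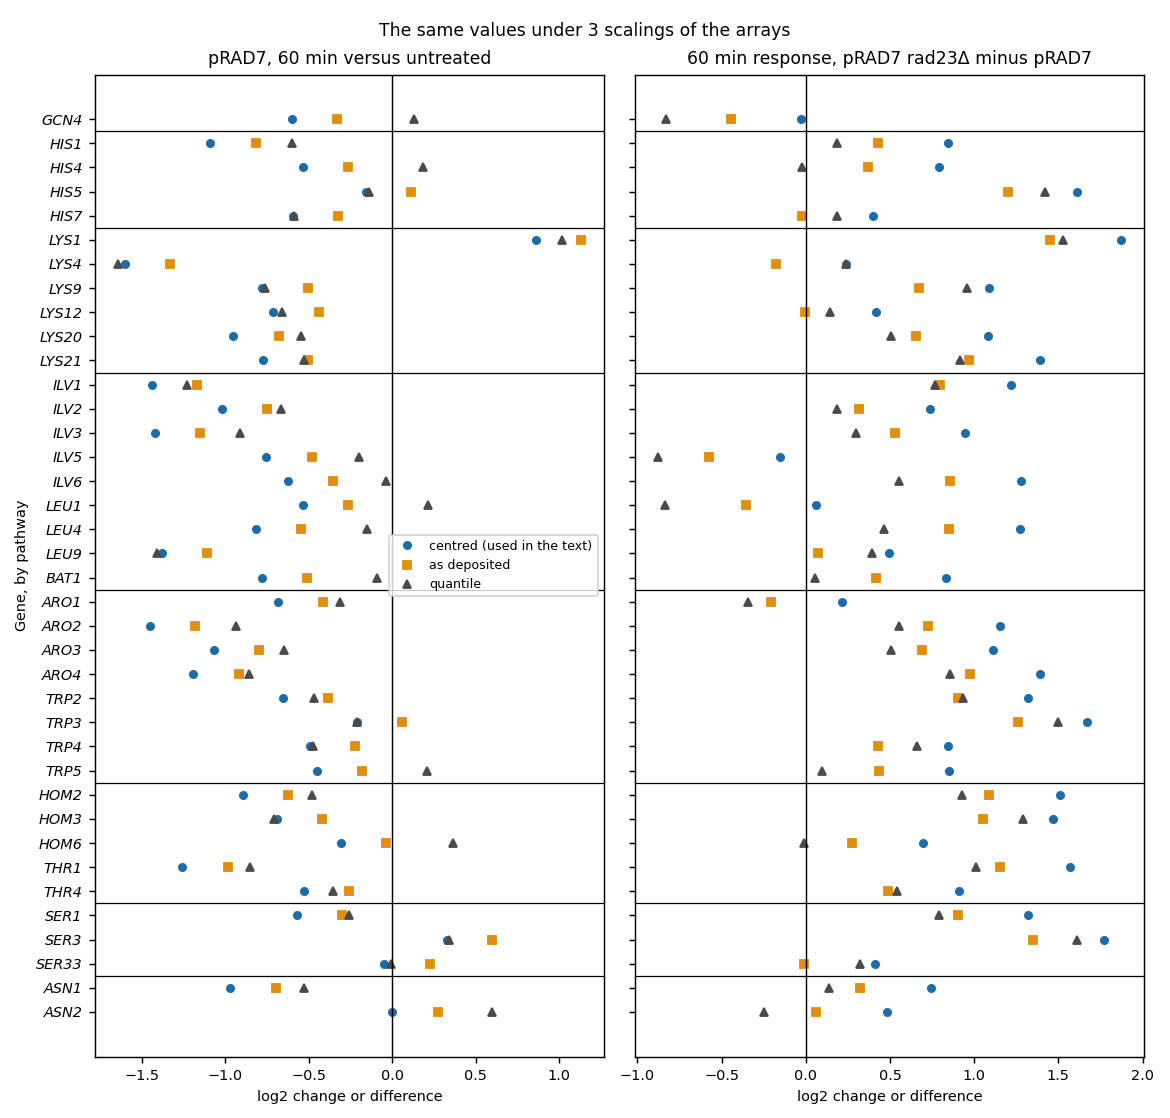
The log2 change at 60 min in pRAD7 (left) and the difference of the 60 min responses, pRAD7 *rad23*Δ minus pRAD7 (right), of the 38 genes after centring, as deposited and after quantile normalization. Among the called genes on the left *GCN4*, *HIS4* and *TRP5* cross 0 under quantile normalization, and on the right *HIS5*, *LYS1* and *TRP3* stay above 1 under all 3 scalings.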

How the data were processed

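The deposited values were MAS5 signal intensities on a linear scale, 1 per probe set, which the authors scaled per array to a trimmed mean between 500.3 and 500.5 (the submitters' processing notes name MAS5 and Affymetrix Expression Console; no version is given in those sources). Of 9335 probe sets, 6504 carry 1 gene name, and the brightest per gene was kept for 5656 genes. Intensities under the 10th percentile (8.5) were set to it, log2 was taken, and array medians (log2 6.81 to 7.28) were centred. Genes under the 25th percentile (log2 6.53) were left out. An array gives no count depth, and the number of arrays limits the precision. Group means were fitted by limma (version 3.58.1, under R 4.3.3), its moderated variances following a trend on signal, and p-values were adjusted by Benjamini-Hochberg per comparison over 4242 genes in 31 comparisons, 7 of them added after the values were seen. The script was tested on simulated data. No set test was run. Plots were made in Python 3.11.15 (matplotlib 3.10.9).

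The members and lists were chosen with earlier results of these data known. By rule the text names *GCN4*, the 2 genes of each pathway with the largest 60 min change in pRAD7 (all for serine and asparagine), any called against its pathway's direction, the 5 smallest adjusted p in each difference between strains, and isoenzyme pairs. Other genes, such as *ILV5*, *TRP5*, *LEU1*, *HOM6* and *PCL5*, were chosen after their values were seen. The alternatives were other filters, no floor, values as deposited, quantile normalization, the mean of all probe sets of a gene, a fit restricted to the arrays of the comparison, a replicate block, leaving out single arrays, and, after seeing the data, a fit without 2 arrays.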

Additional observations from a re-analysis of the deposited data

Results flagged for a closer look

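Differences between strains in the response at 60 min, tested as interactions with limma, passed the threshold in 3 of the comparisons. For pRAD7 *rad23*Δ against pRAD7 22 members were called, among them *THR1* (a log2 difference of 1.57), *HIS5* (1.62), *HOM2* (1.51), *ARO4* (1.39) and *TRP3* (1.68). For psocs *rad23*Δ against psocs 9 were called, among them *HOM2* (1.15), *HIS5* (1.07), *ILV6* (0.979), *ARO4* (0.915) and *LYS1* (1.12). For psocs *rad23*Δ against pRAD7, which shares arrays with both, 11 were called, among them *HOM2* (1.24), *ILV6* (1.11), *ARO4* (1.03), *HIS5* (1.13) and *HOM3* (1.3). Groups had 2 or 3 arrays, fewer than the test for an outlying value within a group needs.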

How the results depend on the processing

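The scaling of the arrays and the small *rad23*Δ groups limit these results most. In the values as deposited the members called numbered 1 at 15 min in pRAD7 *rad23*Δ, 12, 4 and 6 in the differences of the 60 min responses (pRAD7 *rad23*Δ minus pRAD7, psocs *rad23*Δ minus psocs and psocs *rad23*Δ minus pRAD7) and 5 at 60 min between psocs *rad23*Δ and psocs. Under quantile normalization they numbered 1, 1 and 2 at 15 min in pRAD7, pRAD7 *rad23*Δ and psocs *rad23*Δ, 1 between untreated pRAD7 *rad23*Δ and pRAD7, 14, 3 and 4 in the same differences and 6 at 60 min between psocs *rad23*Δ and psocs, and the changes at 60 min of *GCN4* in pRAD7 (0.13) and *ILV6* in psocs (0.0549) turned positive. With a fit to only the groups compared they numbered 0 and 1 at 15 min in the *rad23*Δ strains, 7 and 9 at 60 against 15 min there, and 2 and 7 in the differences of psocs *rad23*Δ from psocs and from pRAD7. Without the 2 arrays of low stress induction, a setting chosen after seeing the data, they numbered 1 at 15 min in pRAD7 *rad23*Δ, 7 at 60 against 15 min in psocs *rad23*Δ and 1 at 15 min between pRAD7 *rad23*Δ and pRAD7. The causes were not tested.

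With single arrays left out the calls ranged, in the order pRAD7, psocs, pRAD7 *rad23*Δ and psocs *rad23*Δ, from 1 to 4, 1 to 5, 1 to 5 and 1 to 5 at 15 min, from 26 to 32, 24 to 27, 11 to 14 and 12 to 16 at 60 min, and from 26 to 30, 24 to 27, 6 to 10 and 6 to 13 at 60 against 15 min. A lone array left in a group is assumed to vary like the other groups. The ranges were 17 to 27, 1 to 9 and 4 to 12 for the differences of the 60 min responses of pRAD7 *rad23*Δ from pRAD7, psocs *rad23*Δ from psocs and psocs *rad23*Δ from pRAD7, 0 to 1 for psocs *rad23*Δ from pRAD7 *rad23*Δ, 0 to 5 for untreated pRAD7 *rad23*Δ against pRAD7, and 18 to 22 and 4 to 13 at 60 min for pRAD7 *rad23*Δ against pRAD7 and psocs *rad23*Δ against psocs. In the other comparisons they were 0 to 0. Over 30 pairs of arrays with the same replicate number the correlation of deviations ran from -0.343 to 0.507. The median was 0.0462 and 12 were over 0.1, so the numbers do not pair the samples across all strains. In psocs the untreated and 60 min arrays of the same number correlated at 0.507, 0.179 and 0.339, and pairing within single strains was not tested. With the replicate number as a block 23, 9 and 10 members were called in the first 3 differences of responses.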
